A study of Homo sapiens with 4 samples.

Results

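Death receptors are cell surface proteins of the tumour necrosis factor receptor family that can start apoptosis from outside the cell. The genes described here are 10 that act at and just below these receptors: the ligand gene TNFSF10, the receptor genes FAS, TNFRSF10A, TNFRSF10B, TNFRSF10D and TNFRSF1A, the adaptor gene FADD, the initiator caspase gene CASP8, its regulator gene CFLAR and the inhibitor of apoptosis gene BIRC3. They were chosen by name, and every probe set that the platform annotation pairs with 1 of these symbols alone was taken. That gave 36 of the 54613 probe sets and 9 of the 19775 genes, since BIRC3 was not analysed here.

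When a ligand such as TRAIL (the product of TNFSF10) or FAS ligand binds, the receptors cluster and recruit FADD through their death domains, and FADD in turn recruits procaspase-8. Caspase-8 activates itself in this complex and then cleaves executioner caspases or BID, which links the signal to mitochondria. In hepatocytes, which are known for their sensitivity to FAS ligation, the mitochondrial branch is needed for efficient killing, and FAS and TRAIL receptor signalling have been studied as routes of lipid-induced liver cell death.

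Expression was measured in HuH7, a human hepatocellular carcinoma line, with 2 arrays of KDM6B wild-type cells and 2 arrays of KDM6B knockout cells. KDM6B encodes a histone demethylase that removes methyl marks linked to gene silencing, and the study asks how its loss alters G0S2 expression and resistance to lipotoxicity. Knockout cells were transfected with a Cas9 vector and a guide vector against KDM6B, selected with G418 and cloned by limiting dilution. The labels name no lipid or death ligand treatment and do not say whether the wild-type cells received a vector, whether the 2 knockout samples are different subclones or whether samples came from separate cultures. Every p-value below thus reflects how far these 4 samples scatter, and that scatter could be purely technical. Effects of cloning and of losing KDM6B cannot be told apart.

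Values are on the log2 scale after RMA, which corrects background, equalises the arrays and summarises the short probes of a probe set into 1 value. Differences are knockout minus wild type. The test was limma, which fits a linear model to each gene and draws each gene's variance towards that of all genes. A gene was called, and is said to rise or fall, where its Benjamini-Hochberg adjusted p was under 0.05. The targeted gene came first as a check of the labels. KDM6B gave log2 values of 8.46 and 8.27 with wild-type cells against 7.95 and 8.14 with knockout cells on its brightest probe set. The knockout arrays were both lower, but the difference of -0.32 (SE 0.12) was not called (limma adjusted p = 0.235), and a transcript level does not check the edit itself. G0S2 fell by 2.36 (limma adjusted p = 0.0028), with 9.59 and 9.61 in wild type against 7.02 and 7.46 in knockout. The hepatoma identity was borne out by ALB (13.70 to 13.96) and AFP (13.70 to 13.80) in all 4 arrays. Of the 8 measured hepatocyte and hepatoma markers 2 were called, SERPINA1 and FGB, both lower in knockout, where 7.07% of all genes were called. The log2 of the summed level of these 8 was 16.23 and 16.12 in wild type against 16.01 and 16.07 in knockout.

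The upstream sequences of the ligand gene TNFSF10, the only member called, and of FADD, the member with the next smallest adjusted p, are given first because they differ in composition and in motifs. Each is the 250 bases before the RefSeq start, 5′ to 3′ on the gene's strand, in GRCh38.p14. TNFSF10 lies on the minus strand at chr3:172523431-172523680, with capitals marking an interferon-stimulated response element on the opposite strand and a TATA box. FADD lies on the plus strand at chr11:70203046-70203295, with capitals marking 2 GC boxes.
TNFSF10: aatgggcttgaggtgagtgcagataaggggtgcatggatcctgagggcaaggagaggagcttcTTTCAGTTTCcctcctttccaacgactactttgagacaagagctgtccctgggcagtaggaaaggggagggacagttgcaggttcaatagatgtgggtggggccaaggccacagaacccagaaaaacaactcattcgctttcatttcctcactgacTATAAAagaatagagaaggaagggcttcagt
FADD: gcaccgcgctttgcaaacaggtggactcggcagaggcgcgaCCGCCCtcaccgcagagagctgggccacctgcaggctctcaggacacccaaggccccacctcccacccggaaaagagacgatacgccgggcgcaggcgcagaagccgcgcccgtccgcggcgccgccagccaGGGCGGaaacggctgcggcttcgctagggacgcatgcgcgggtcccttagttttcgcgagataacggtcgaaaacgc

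The TNFSF10 window held 2 CpG dinucleotides and 49.6% G and C, and the FADD window held 32 and 68.8%. The median over 35114 such windows of RefSeq genes was 11 CpG, with 2 or fewer in 22.9% of windows and 32 or more in 9.52%. Other members, not called or not measured, also had low counts, so a low count was not particular to TNFSF10. The 4 CFLAR windows held 17, 0, 0 and 22 CpG, the 3 CASP8 windows 6, 5 and 5, and the TNFRSF1A window 4. The 3 FAS windows held 14, 11 and 19, and the BIRC3 window 11. Windows at 14 starts of 7 members were searched on both strands for 5 motifs. The members on chromosome 8 (TNFRSF10A, TNFRSF10B and TNFRSF10D) were filtered out before the search, so no count here covers them. The background windows were not filtered in this way. The interferon-stimulated response element (GAAANNGAAA) matched in 1 of the 14, that of TNFSF10, where it began at position -187 from the start, and in 3.02% of all windows. The TATA box (TATAAA) matched in TNFSF10, at position -31 from the start, and in 1 of 3 CASP8 windows, against 10.7% of all windows. The GC box (GGGCGG) matched in 7 windows of 4 members (FADD, FAS, CASP8 and CFLAR), against 42.6% of all windows. The NF-kB consensus matched in 3 windows, of FAS, CFLAR and BIRC3, against 8.04%, and in CFLAR it overlapped a GC box. The gamma-activated site (TTCNNNGAA) matched in 1 CASP8 window, against 6.57%. The first 2 of the 3 FAS windows share sequence. A match describes letters in these windows and was not tested as a binding site.

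TNFSF10 was the only 1 of the 9 measured members to pass the test, and it rose about 2-fold in knockout. By limma with Benjamini-Hochberg adjustment over all genes, 1 member was called higher and 0 lower, and 2 had an unadjusted p under 0.05. Over all 19775 genes, 3.14% were called higher and 3.94% lower, 7.07% in all. An unadjusted p under 0.05 was found for 20% of all genes, 8.72% higher and 11.3% lower, so that the 2 of 9 members were near the share of all genes. The median log2 difference of the members, knockout minus wild type, was 0.02, and that of all genes was 0.01. In 4 of the 9 members the arrays of the groups did not overlap, 2 higher and 2 lower. That share, 44.4%, was near the 45.9% over all genes, of which 22.4% were higher and 23.5% lower without overlap.

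TNFSF10 encodes TRAIL, a ligand that binds the receptors encoded by TNFRSF10A, TNFRSF10B and TNFRSF10D. Its brightest probe set, 202688_at, gave log2 values of 7.33 and 6.90 with wild-type cells (mean 7.12 ± 0.30, SD, n = 2) against 8.16 and 8.10 with knockout cells (mean 8.13 ± 0.04, SD, n = 2). Both knockout arrays lay above both wild-type arrays. The log2 difference was 1.01 (SE 0.16, 95% interval 0.60 to 1.42), a 2.02-fold rise with limma adjusted p = 0.026. In RNA from whole cultures, more cells with the transcript and more transcript per cell cannot be told apart.

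All 3 TNFSF10 probe sets were higher in knockout. The second, 202687_s_at, measured 6.83 and 6.34 in wild type against 7.54 and 7.87 in knockout, again without overlap. Its log2 difference was 1.12, and in the limma fit over all 54613 probe sets it missed the threshold (adjusted p = 0.054), where 202688_at passed (adjusted p = 0.039). The third, 214329_x_at, measured 7.19 and 6.41 in wild type against 7.19 and 7.87 in knockout. Wild type 1 and knockout 1 had the same value there, and the difference of 0.73 did not pass (adjusted p = 0.387). Wild type 2 was the lowest array on all 3 probe sets. These probe sets read 1 gene in the same 4 samples and are not separate evidence. Of all 36 member probe sets, 1 was called higher and 0 lower, against 1.27% and 1.63% of the 54613, 2.91% in all. The arrays of the groups did not overlap in 4 that were higher and 6 that were lower, against 40.5% of all probe sets in either direction.

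The TNFSF10 call did not hold with any 1 array left out, nor without the intensity trend in the variance. Calls over all genes also fell in each of these fits, from 1399 to 783 without the trend. With 1 array left out the log2 difference ranged from 0.80 to 1.22. Dropping wild type 1 gave a limma adjusted p of 0.053, and dropping wild type 2 gave 0.0998. Dropping knockout 1 gave 0.214, dropping knockout 2 gave 0.200, and a fit with no trend gave 0.051.

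**Figure D1:**
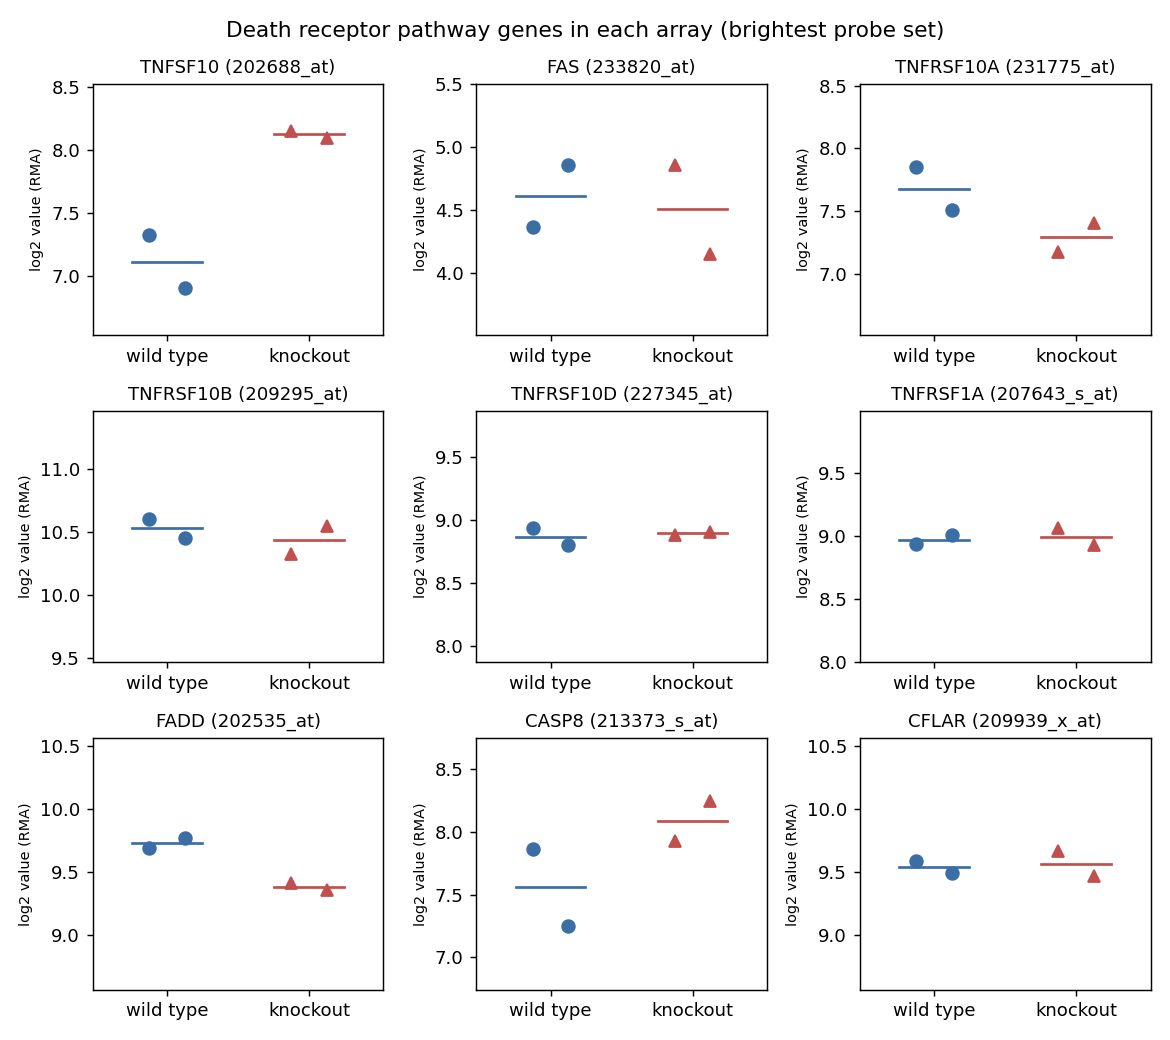
Log2 RMA values of the 9 measured members in each array, by the brightest probe set, with wild-type arrays as circles, knockout arrays as triangles and lines for group means (n = 2 each). Every panel spans the same number of log2 units around its own level. TNFSF10 reads 6.90 to 7.33 in wild type and 8.10 to 8.16 in knockout, FADD is lower in both knockout arrays, and TNFRSF10D and TNFRSF1A overlap.

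Among the receptors, none of the 5 measured genes passed the test in the limma fit over all genes, and none had an unadjusted p under 0.05. TNFRSF10A and TNFRSF10B encode the TRAIL receptors that carry a death domain and can signal death. The brightest TNFRSF10A probe set, 231775_at, measured 7.85 and 7.51 in wild type against 7.18 and 7.41 in knockout. Both knockout values lay below both wild-type values, and the log2 difference of -0.39 (SE 0.16, 95% interval -0.79 to 0.02) did not pass (limma adjusted p = 0.268). The other 2 TNFRSF10A probe sets also had no overlap and lower knockout values, with differences of -0.30 and -0.10. Their adjusted p in the probe set fit was 0.329 and 0.867. On 231775_at the difference was -0.21 without wild type 1 and -0.56 without wild type 2.

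TNFRSF10B measured 10.61 and 10.46 in wild type against 10.33 and 10.55 in knockout on 209295_at. The groups overlapped, with a log2 difference of -0.09 (95% interval -0.37 to 0.19, limma adjusted p = 0.774). Its other 3 probe sets gave -0.07, -0.03 and 0.06, and 1 of them lay below the 25th percentile of every array.

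TNFRSF10D encodes a TRAIL receptor with a shortened death domain that binds the ligand without signalling death. It measured 8.93 and 8.80 in wild type against 8.88 and 8.91 in knockout, with the knockout values between the wild-type values. The log2 difference was 0.03 (95% interval -0.22 to 0.27, limma adjusted p = 0.947), and a dimmer probe set gave 0.10. TNFRSF1A encodes the main death domain receptor for tumour necrosis factor. It measured 8.94 and 9.01 in wild type against 9.06 and 8.93 in knockout on its only probe set, with overlap and a log2 difference of 0.02 (95% interval -0.22 to 0.27, limma adjusted p = 0.953). For both genes the intervals leave out a 2-fold change in either direction.

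FAS, the receptor for FAS ligand, was dim in both groups. Its 5 probe sets ranged from 2.14 to 4.86 over the arrays, and 3 of them lay below the 25th percentile of every array (3.53 to 3.67). The brightest, 233820_at, measured 4.36 and 4.86 in wild type against 4.86 and 4.15 in knockout, with wild type 2 and knockout 1 at the same value. The log2 difference was -0.11 with a 95% interval of -0.84 to 0.62 (limma adjusted p = 0.921). Differences on the 5 probe sets ran from -0.15 to 0.10. No detection calls were used, so whether these levels lie above background was not tested, and no change in FAS was detectable at them.

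FADD encodes the adaptor that joins the receptors to procaspase-8. Its only probe set, 202535_at, measured 9.69 and 9.77 in wild type against 9.41 and 9.36 in knockout. Both knockout arrays lay below both wild-type arrays, and the replicates differed by less than the groups. The log2 difference of -0.35 (SE 0.09, 95% interval -0.57 to -0.13) corresponds to 1.27-fold and did not pass at 0.05 (limma adjusted p = 0.087). Leaving out each array gave -0.39 to -0.31.

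CASP8 encodes the initiator caspase of the pathway. Its brightest probe set, 213373_s_at, measured 7.86 and 7.25 in wild type against 7.92 and 8.24 in knockout. The groups did not overlap, but wild type 1 and knockout 1 lay close together while the wild-type arrays lay further apart. The log2 difference was 0.52 (SE 0.23, 95% interval -0.05 to 1.10, limma adjusted p = 0.290). The next probe set, 207686_s_at, measured 5.25 and 5.29 in wild type against 5.74 and 5.52 in knockout, a difference of 0.36 that did not pass in the probe set fit (adjusted p = 0.369). The dimmest, 1553306_at, whose name has no letter before _at and marks the more specific type, measured 3.85 and 4.18 in wild type against 4.24 and 3.76 in knockout, and gave -0.02. On 213373_s_at the difference was 0.22 without wild type 2 and 0.83 without wild type 1.

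CFLAR encodes c-FLIP, a caspase-8 relative that lacks protease activity and limits or tunes caspase-8 activation in the receptor complex. It had 14 probe sets, the most of any member, of which 9 have the ending _x_at that marks possible cross-hybridisation. The brightest, 209939_x_at, measured 9.59 and 9.49 in wild type against 9.66 and 9.46 in knockout, with the wild-type values between the knockout values. The log2 difference was 0.02 (95% interval -0.24 to 0.29, limma adjusted p = 0.960). Over the 14 probe sets 5 were higher and 9 lower, with a median of -0.06 and a range from -0.16 to 0.33. In the probe set fit 0 were called, with adjusted p from 0.662 to 0.992. The 2 largest differences, 0.33 on 239629_at and 0.30 on 235427_at, came from probe sets in which wild type 2 alone was low. That array read 2.91 on 239629_at, against 3.66 to 4.06 in the others.

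**Figure D2:**
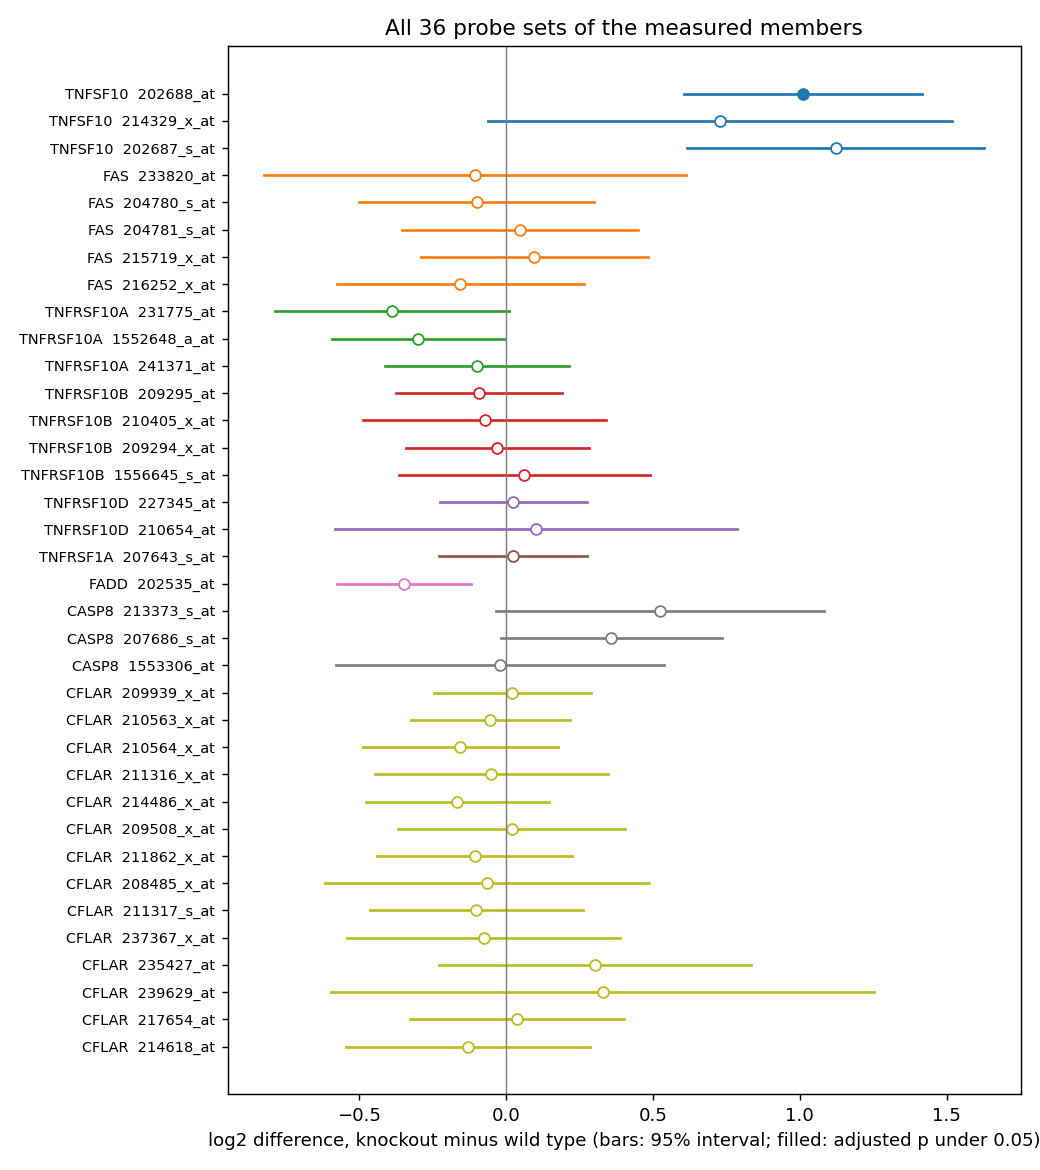
Log2 differences, knockout minus wild type, of all 36 member probe sets (points) with 95% intervals (bars), from the limma fit over all probe sets; filled points have an adjusted p under 0.05. The 3 TNFSF10 probe sets lie between 0.73 and 1.12 and 1 is filled, the 3 TNFRSF10A probe sets lie below 0, and the 14 CFLAR probe sets lie on both sides of 0.

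Members on chromosome 2 and members on chromosome 8 lie close to each other in the genome, so these clusters were set beside their neighbours. TNFSF10 and FADD were set beside theirs too, and FAS and TNFRSF1A were not. On chromosome 2 the order is CFLAR, the antisense gene CFLAR-AS1, CASP10 and CASP8. CASP10, which encodes a close relative of caspase-8, measured 6.27 and 6.22 in wild type against 5.89 and 5.95 in knockout on its brightest probe set, a log2 difference of -0.32 (limma adjusted p = 0.249). CASP8 next to it gave 0.52 and CFLAR 0.02, and 0 of these 4 genes were called. The other 3 CASP10 probe sets gave -0.15, 0.31 and 0.15. The 10 measured genes that flank this cluster, 5 on each side, ranged from -0.22 to 0.23, and 0 were called.

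On chromosome 8 the order is TNFRSF10B, TNFRSF10B-AS1, TNFRSF10C, TNFRSF10D and TNFRSF10A. TNFRSF10C encodes a TRAIL receptor without an intracellular death domain, and its brightest probe set gave 0.07 (limma adjusted p = 0.867). The 4 receptor genes thus gave -0.09, 0.07, 0.03 and -0.39 in order, and the 10 flanking genes -0.14 to 0.24 with 0 called. TNFSF10 on chromosome 3 was flanked by 10 genes with differences of -0.19 to 0.43 and 0 calls. NCEH1, the next measured gene after it, was the highest of them. Of the 10 genes around FADD on chromosome 11, 2 were called lower, FGF19 at -0.70 and DHCR7 at -0.68, where 3.94% of all genes were. The 10 ranged from -0.75 to 0.37, and a fall shared by this region was not tested. The neighbours of TNFSF10 and FADD were examined after the values of these genes were seen.

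**Figure D3:**
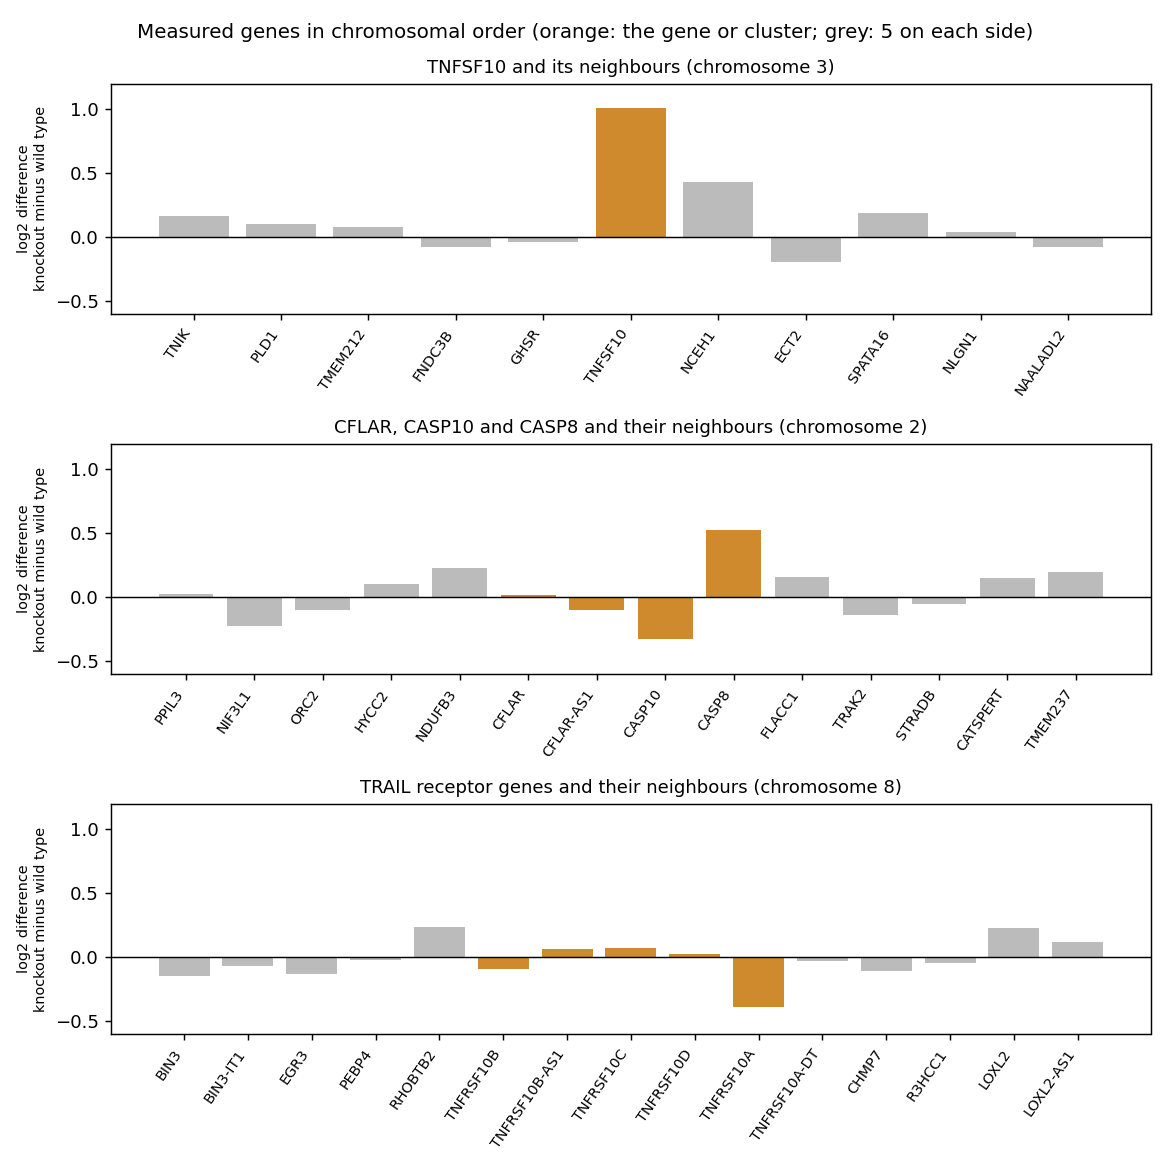
Log2 differences, knockout minus wild type, of measured genes in chromosomal order around TNFSF10, the CFLAR to CASP8 cluster and the TRAIL receptor cluster (orange), with 5 measured genes on each side (grey). TNFSF10 at 1.01 stands above its neighbours, which lie between -0.19 and 0.43, and the genes inside each cluster differ in sign.

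The wider pathway was described with a list of 57 other genes, of which 51 were measured and 6 were not analysed here. In the limma fit over all genes 2 rose, 2 fell and 47 did not pass. The called share, 7.84%, was near the 7.07% of all genes, and the median log2 difference was -0.06. Of the 51, 36 were lower and 15 higher, where over all genes 9490 were lower and 10284 higher. However, 34 of the 51 were at or above the median level of all genes. Among all genes at or above that level the median log2 difference was -0.04. The part of expression level in the lower values was not tested.

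Of 12 measured ligands and receptors, TNFRSF21 rose, 0 fell and 11 did not pass, a called share of 8.33% beside 7.07% of all genes. TNFRSF21 encodes death receptor 6, a death domain receptor outside the TRAIL and FAS group. Its brightest probe set, 218856_at, measured 9.32 and 9.49 in wild type against 10.57 and 10.47 in knockout, without overlap. The log2 difference was 1.12 (SE 0.10, limma adjusted p = 0.0058), a 2.17-fold rise, and a second probe set gave 0.90 (adjusted p = 0.080 in the probe set fit). The call held without wild type 2 (adjusted p = 0.048) and ended without wild type 1 (0.059), knockout 1 (0.102) or knockout 2 (0.093). TNFRSF11B, which encodes the soluble TRAIL-binding decoy osteoprotegerin, measured 8.19 and 8.21 in wild type against 7.81 and 7.82 in knockout. Its difference of -0.38 did not pass (limma adjusted p = 0.086). The ligand genes FASLG and TNF read 3.52 to 4.02 and 3.52 to 3.90 over the 4 arrays, close to the 25th percentiles, and did not pass.

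In the NF-kB branch, which carries survival signals from the same receptors, 1 of 11 genes rose, 2 fell and 8 did not pass. The called share was 27.3% of these 11, against 7.84% of the wider list and 7.07% of all genes. It rests on few genes, and no set test was run. NFKB1, which encodes the p105 precursor of an NF-kB subunit, measured 7.80 and 7.84 in wild type against 7.04 and 6.74 in knockout on its only probe set. It fell by 0.93 (SE 0.14, limma adjusted p = 0.021). IKBKB, which encodes the kinase IKK-beta that targets NF-kB inhibitors for degradation, measured 7.38 and 7.19 in wild type against 6.35 and 6.52 in knockout, and fell by 0.85 (SE 0.14, limma adjusted p = 0.026). Its other 2 probe sets gave -0.65 (adjusted p = 0.089 in the probe set fit) and -0.02, and the mean of the 3 did not pass (adjusted p = 0.056). NFKBIA, which encodes the inhibitor IkB-alpha and is itself an NF-kB target, measured 9.55 and 9.73 in wild type against 10.51 and 10.30 in knockout. It rose by 0.77 (SE 0.12, limma adjusted p = 0.022), while a dim second probe set of the more specific type gave 0.06. For each of these 3 genes the call ended with any 1 array left out, with adjusted p from 0.097 to 0.214. The NFKBIA call also ended without the intensity trend (0.059) and with the mean of both probe sets (0.318).

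The remaining groups had 0 calls by limma, and their counts at an unadjusted p under 0.05 stand beside 20% of all genes. Of 8 measured adaptors and complex regulators 3 had an unadjusted p under 0.05, all lower in knockout: FAF1 at -0.29, CASP10 at -0.32 and PEA15 (a death effector domain protein that can bind FADD) at -0.31. Of 8 inhibitors of apoptosis and ubiquitin regulators 0 had an unadjusted p under 0.05. These include BIRC2 at -0.14, XIAP at -0.05 and TNFAIP3 at 0.14. Of 10 executioner and mitochondrial genes 2 had an unadjusted p under 0.05, CASP9 at -0.37 (limma adjusted p = 0.118) and HTRA2 at -0.44 (0.077). BID, which caspase-8 cleaves, gave -0.16 (adjusted p = 0.507). For the necroptosis genes RIPK3 and MLKL the differences were 0.15 and 0.01, with 0 unadjusted p under 0.05.

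**Figure D4:**
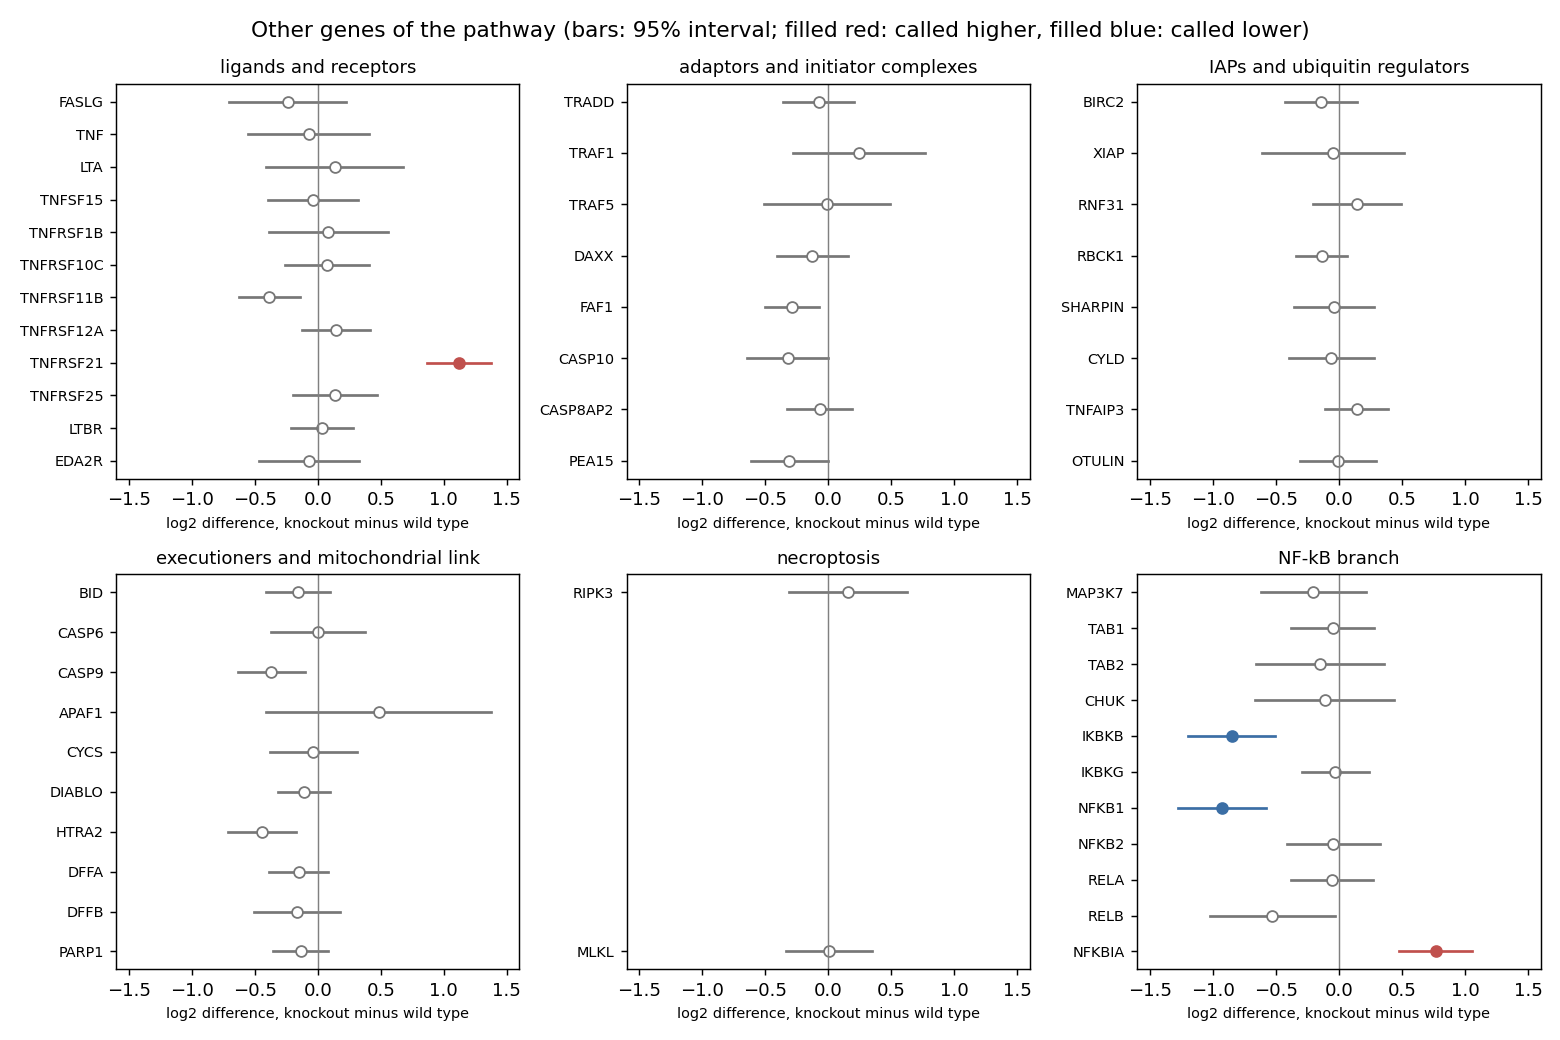
Log2 differences, knockout minus wild type (points), with 95% intervals (bars) for the 51 measured genes of the wider pathway in 6 groups by role, from the limma fit over all genes. TNFRSF21 at 1.12 and NFKBIA at 0.77 are called higher, and IKBKB at -0.85 and NFKB1 at -0.93 are called lower; the other 47 are not called.

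Leukocyte markers had 1 call of 5, LYZ, which fell by 1.58, and the log2 of their summed level was 11.35 and 10.74 in wild type against 9.38 and 9.98 in knockout, while PTPRC lay below the 25th percentile of every array. LYZ dominates that sum, and the other 4 had differences of -0.01 to 0.18, 3 of them higher in knockout. Endothelial markers had 1 call of 5, PECAM1, which fell by 0.88, with log2 summed levels of 7.68 and 7.88 against 7.39 and 7.19, and CDH5 and KDR below the 25th percentile of every array. TEK differed the other way by 0.63 without overlap and was not called (limma adjusted p = 0.103), with 4.43 and 4.11 in wild type against 4.93 and 4.88 in knockout. Fibroblast and stellate markers had 0 calls of 7 by limma and 0 with an unadjusted p under 0.05, with log2 summed levels of 8.16 and 8.36 in wild type against 8.41 and 8.46 in knockout. Over all genes 7.07% were called, and no set test was run on these short lists. The part of these markers in the TNFSF10 result was not tested.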

How the data were processed

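Per the labels' protocols, total RNA of 4 HuH7 samples was amplified with an Affymetrix kit that labels from the 3′ end. The deposited values are log2 expression values, made with RMA and the affy package per the submitters' processing notes, whose version numbers were not given in the sources. Because RMA equalises the arrays, a change shared by most genes is largely removed. Small offsets remained, with array medians from 4.956 (wild type 1) to 5.045 (knockout 1). As deposited, 620 genes were called higher and 779 lower. The counts were 506 and 744 after median centring, and 798 and 768 after repeated quantile normalization. Replicate arrays correlated at 0.9925 (wild type) and 0.994 (knockout). No detection calls were used, and precision is limited by having 4 arrays.

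Probe sets were named by the platform annotation. Of the 54613, 41091 had 1 symbol, 1801 several and 11721 none. Each gene was read by its brightest single-symbol probe set. Knockout was compared with wild type in limma 3.58.1 (R 4.3.3; lmFit, eBayes with an intensity trend, two-sided, Benjamini-Hochberg, call at adjusted p under 0.05), over all genes and separately over all probe sets, with no filter. The fit had 2 residual and 3.62 prior degrees of freedom. A permutation test of 2 against 2 cannot go below p = 0.333 and was not run. Intervals are 95% intervals of that fit. Probe set IDs ending in _s_at or _x_at may read other transcripts.

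The members and gene lists were chosen with earlier results of these data known. Named genes were all members, KDM6B, G0S2 and the called genes of the wider list; uncalled genes named from that list were chosen after their values were seen. Promoter windows came from RefSeq (GRCh38.p14) and were searched in Python 3.11.15. Alternatives were the mean of probe sets, only the more specific probe sets, no trend, a filter on dim genes, median centring, repeated quantile normalization, another threshold, each array left out and replicate blocks. The fit was also run on simulated data, with independent noise drawn from its own variance estimates. Those data lack the correlated replicate differences of these arrays, so that run cannot check the calls made here.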

Additional observations from a re-analysis of the deposited data

How the results depend on the processing

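The log2 difference of TNFSF10 kept its direction under all 12 alternatives (0.80 to 1.22), but some of these could not change it. Another threshold, no trend, the filter on dim genes and the replicate block leave the difference as it was. The more specific probe set of TNFSF10 is also its brightest. Its call was lost under 6 of the 12: each array left out, no intensity trend and the replicate block (limma adjusted p = 0.091). TNFRSF10A and FADD also kept their direction under all 12 without a call at 0.05. The same settings could not change their differences, nor could the mean of probe sets for FADD, which has 1. FADD passed at an adjusted p under 0.10 (0.087).

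All genes called numbered 1399. They became 2236 at an adjusted p under 0.10, 827 with only probe sets without a letter before _at (16782 genes tested), 783 without the trend and 37 to 192 with 1 array left out. With 1 array left out, the lone array is assumed to vary like the other group. Members called were 2 at an adjusted p under 0.10, 0 without the trend (2 with an unadjusted p under 0.05 by limma), and 0 with each array left out (1 to 3). Member probe sets called were 2 at an adjusted p under 0.10, 2 among probe sets at or above the median, 2 after repeated quantile normalization, 0 without the trend (4), 0 after median centring (4) and 0 with each array left out (2 to 7). Wider pathway genes called were 2 with only probe sets without a letter before _at, where 36 were tested, and 0 to 1 with 1 array left out (6 to 7). The cause was not tested for the trend and the centring.

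With only 2 numbers per group, they were not taken as pairs: the replicate differences correlated at -0.55 across genes, which are not independent. The replicate block left 175 genes, 0 members (1 with an unadjusted p under 0.05), 0 member probe sets (2) and 0 wider pathway genes (5). The crossed pairing, added after seeing the data, set knockout 2 beside wild type 1. It gave 3662 of 19775 genes and 4 of 9 members, 2 higher and 2 lower. It also gave 4 of 36 member probe sets and 8 of 51 wider pathway genes. This pairing follows the negative correlation seen in the same values, so fitting it removes scatter and raises the counts by construction. Its counts therefore cannot check the calls.

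Some members changed sign. CASP8, at 0.52 on its brightest probe set, gave -0.020 on its dim and more specific one. CFLAR gave -0.013 as the mean of its probe sets. Median centring gave -0.0053 for TNFRSF10D, -0.0075 for TNFRSF1A and -0.0083 for CFLAR. With 1 array left out FAS ranged from -0.46 to 0.25, TNFRSF10B from -0.21 to 0.021, TNFRSF10D from -0.041 to 0.092, TNFRSF1A from -0.042 to 0.088 and CFLAR from -0.076 to 0.12. FAS was not tested with the filter on dim genes, nor TNFRSF1A with only the more specific probe sets, since neither setting kept them. FAS was dim, and no detection calls were used.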
